A study of Homo sapiens with 6 samples.

Results

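ATF4 and 8 genes that carry its stress response, TRIB3, PPP1R15A, DDIT3, SESN2, CHAC1, ASNS, DDIT4 and STC2, were followed through the long-read transcriptome of bronchial epithelial cells with and without the U2AF1 S34F mutation. They were taken by name, matching the Ensembl gene ID of each deposited isoform to its symbol, and all 9 were found among the 11034 Ensembl genes of the series, with 60 of its 63224 isoforms. In S34F libraries 6 of the 9 were lower at an adjusted p of at most 0.05 (TRIB3, PPP1R15A, DDIT3, SESN2, CHAC1 and STC2). Of all 7033 genes and loci tested, 2.13% were called lower. With no term for the library marks B1 and B2 described below, or with the libraries of isolate 2 summed, 0 of the 9 were called. ATF4 and ASNS were also lower in every S34F library than in every wild-type library but did not pass the test. Such a separation held for 7.95% of all tested. The levels of DDIT4 overlapped between the genotypes.

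The integrated stress response begins when a kinase such as PERK, GCN2, PKR or HRI phosphorylates the translation factor eIF2. General protein synthesis then slows while the mRNA of ATF4, which carries upstream reading frames, is translated better. ATF4 is a bZIP transcription factor that pairs with C/EBP family members on composite C/EBP-ATF sites and turns on genes of amino acid supply, redox balance and, in prolonged stress, cell death. Since ATF4 itself is controlled largely at translation, its mRNA level and the activity of its protein need not move together.

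The S34F group was HBEC3kt cells with U2AF1 S34F, in which serine 34 of the small subunit of the splicing factor U2AF is replaced by phenylalanine, and the wild-type group was HBEC3kt cells without it. HBEC3kt is a human bronchial epithelial line immortalised with CDK4 and telomerase, which both groups share. Poly(A) RNA was copied to full-length cDNA by Smart-Seq2 and read on a MinION nanopore sequencer, in 3 libraries of each genotype, and no other treatment is given in the labels. Each genotype has 2 isolates, each read once in a library marked B1 (replicates 1 and 2), and isolate 2 was read once more in a library marked B2 (replicate 3). The sources used here give neither the derivation of the isolates nor the meaning of B1 and B2, so p-values measure the spread between these libraries, which may be partly technical. Every SD is over 3 libraries of a genotype, of which replicates 2 and 3 come from 1 isolate, so n = 3 stands for libraries and not for 3 isolates.

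The deposited counts totalled 451540 to 1014868 reads in S34F libraries and 1286512 to 1720292 in wild-type libraries. Both B2 libraries had more reads at loci without a gene ID (17.5% in S34F and 19.0% in wild type) than the B1 libraries (8.22% to 9.86%). Markers of basal bronchial epithelium had reads for 10 of 10 genes, with a summed level of 5212 to 8202 CPM in S34F and 5496 to 6444 CPM in wild-type libraries. Of 6 markers each of secretory or ciliated epithelium, fibroblasts and blood cells, 0 had reads. The genotype labels could not be checked, since a count holds no sequence. All levels are TMM-scaled CPM (read counts scaled to a common library size), and positions are in build hg19 unless another is named.

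Promoter windows, 250 bases before to 50 after an annotated start, were taken from RefSeq on GRCh38.p14 for all 9 genes. A C/EBP-ATF composite site, spelled TGATGNAA on one strand or TTNCATCA on the other, was found in the windows of CHAC1 and ASNS, 2 of 9 genes, against 4.46% of the 27305 genes with a window. A full cyclic AMP response element, TGACGTCA, which ATF and CREB proteins can bind, was found in that of PPP1R15A only, against 2.25% of genes. The longer ER stress element was found in none of the 9 and in 0.0769% of 35116 windows. These 3 windows are shown because they hold such a match, which is a match of letters and not a measured site. That of PPP1R15A was added after its values were seen. Capitals mark the match, which begins 209 bases before the start in CHAC1 (chr15:40953221-40953520, plus strand, read on the opposite strand) and 68 bases before it in ASNS (chr7:97872359-97872658, minus strand), while PPP1R15A is at chr19:48872171-48872470 on the plus strand.
CHAC1: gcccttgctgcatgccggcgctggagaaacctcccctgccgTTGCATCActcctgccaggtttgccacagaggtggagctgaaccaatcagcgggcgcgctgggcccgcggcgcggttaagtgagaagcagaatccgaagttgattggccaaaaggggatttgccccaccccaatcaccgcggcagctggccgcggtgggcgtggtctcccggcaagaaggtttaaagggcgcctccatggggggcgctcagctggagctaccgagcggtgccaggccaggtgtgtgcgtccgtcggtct
ASNS: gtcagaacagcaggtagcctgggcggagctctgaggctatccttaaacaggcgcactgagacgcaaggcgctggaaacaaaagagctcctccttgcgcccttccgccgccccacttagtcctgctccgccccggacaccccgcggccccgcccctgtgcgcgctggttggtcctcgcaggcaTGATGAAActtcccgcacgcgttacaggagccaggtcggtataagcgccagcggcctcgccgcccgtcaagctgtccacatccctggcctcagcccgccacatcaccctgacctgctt
PPP1R15A: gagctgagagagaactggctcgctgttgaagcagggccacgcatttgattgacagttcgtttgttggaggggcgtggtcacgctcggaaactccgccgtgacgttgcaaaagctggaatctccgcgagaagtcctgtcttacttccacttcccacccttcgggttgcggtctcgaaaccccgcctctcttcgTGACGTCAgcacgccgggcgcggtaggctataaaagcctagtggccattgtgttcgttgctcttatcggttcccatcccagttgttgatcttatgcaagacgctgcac

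Of the 9 genes, 6 were called lower by edgeR's quasi-likelihood test and 0 higher. Of all 7033 genes and loci tested, 3.24% were called, 2.13% lower and 1.11% higher. The median log2 fold change, S34F over wild type, was -1.75 for the 9 genes and 0.02 for all tested. For 8 of the 9, every S34F library lay below every wild-type library, which held for 7.95% of all tested. The 9 genes were chosen with earlier results of these data known, so these values beside those of all tested are a description only. Together the 9 genes took 0.295%, 0.347% and 0.185% of the reads in S34F libraries 1, 2 and 3, against 0.658%, 0.538% and 0.329% in wild-type libraries 1, 2 and 3. Most of these reads belong to DDIT4, and without it the shares were 0.0388%, 0.0496% and 0.0501% in S34F and 0.298%, 0.257% and 0.213% in wild type. In bulk RNA, fewer cells expressing a gene and less RNA per cell cannot be told apart. Without S34F replicate 3 or WT replicate 3, the calls were 3 (TRIB3, PPP1R15A and STC2), beside 94 of 7774 and 67 of 6976 over all tested. With no B1/B2 term, or with both libraries of isolate 2 summed, edgeR called 0 of the 9, and 7 and 5 of them had an unadjusted p under 0.05. Over all genes and loci tested, edgeR then called only 2 of 7033 and 0 of 8614.

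**Figure D1:**
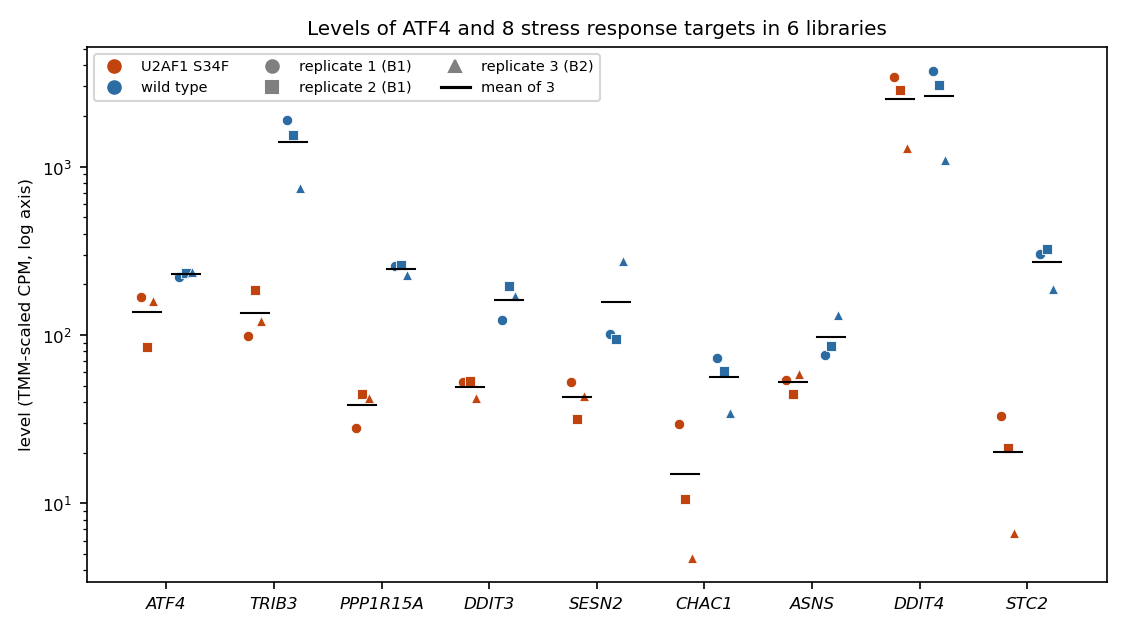
Level of each gene in TMM-scaled CPM on a log axis, with S34F libraries left of wild-type libraries, 1 point per library and a bar at the mean of 3. The points of the genotypes are apart for 8 genes and mixed for DDIT4, where the B2 libraries sit below the B1 libraries in both genotypes.

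ATF4 (ENSG00000128272.10, chromosome 22, 39915701 to 39918688), the factor at the head of the response, had 169, 85.0 and 160 CPM in S34F libraries 1, 2 and 3, against 220, 233 and 236 CPM in wild-type libraries 1, 2 and 3. The wild-type libraries were close together and the S34F libraries all lay below them, with replicate 2 lowest. The means were 138 ± 46.1 CPM in S34F and 230 ± 8.49 CPM in wild type (SD over libraries, n = 3 each, from 2 isolates). S34F over wild type, the log2 fold change was -0.73 (SE 0.30, 95% interval -1.36 to -0.10), with an unadjusted p of 0.0258 and an edgeR adjusted p of 0.222, so the difference was not called. Without S34F replicate 1 it was called, at -1.0 and an edgeR adjusted p of 0.0415, beside 519 of 8784 over all tested. This was the only call among 6 fits with a single library left out. The largest edgeR adjusted p among the 6 was 0.566, and the change was smallest without S34F replicate 2, at -0.50.

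DDIT3 (ENSG00000175197.6, chromosome 12, 57910372 to 57914275) encodes CHOP, the C/EBP family factor that ATF4 induces and that promotes cell death in unresolved stress. Its level was 52.6, 53.1 and 42.5 CPM in S34F libraries 1, 2 and 3, against 122, 194 and 171 CPM in wild-type libraries 1, 2 and 3. The S34F libraries were tightly grouped and all below the lowest wild-type library. DDIT3 fell with a log2 fold change of -1.73 (SE 0.30, edgeR adjusted p = 0.00405), to 49.4 ± 5.97 CPM in S34F against 162 ± 36.8 CPM in wild type (SD, n = 3 each). The difference was -1.54 within B1 and -2.01 within B2 on the log2 scale. The call was lost without S34F replicate 3 (edgeR adjusted p = 0.0845), without WT replicate 2 (0.0541) and without WT replicate 3 (0.113), at changes of -1.58 to -1.61.

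The feedback regulators TRIB3 and PPP1R15A both fell. TRIB3 (ENSG00000101255.6, chromosome 20, 361523 to 378203) encodes a pseudokinase that is induced by ATF4 and CHOP and in turn restrains ATF4. It had 98.6, 185 and 122 CPM in S34F libraries 1, 2 and 3, against 1897, 1548 and 746 CPM in wild-type libraries 1, 2 and 3. The lowest wild-type library, the one marked B2, stood 4.04 times above the highest S34F library. TRIB3 fell by 3.27 on the log2 scale (SE 0.38, edgeR adjusted p = 0.000197), and the wild-type level was 9.67 times the S34F level. Within B1 the difference was -3.67, and within B2 it was -2.61.

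PPP1R15A (ENSG00000087074.7, chromosome 19, 49375650 to 49379299) encodes GADD34, which directs a phosphatase to eIF2 and so reverses the signal. It was read at 27.9, 44.6 and 42.5 CPM in S34F libraries 1, 2 and 3, against 256, 260 and 227 CPM in wild-type libraries 1, 2 and 3. Both genotypes were even over B1 and B2, and the groups were 5.09 times apart at their nearest libraries. PPP1R15A had a log2 fold change of -2.68 (SE 0.30, edgeR adjusted p = 0.000175), with -2.87 within B1 and -2.42 within B2. TRIB3, PPP1R15A and STC2 were called with any single library left out, with largest edgeR adjusted p-values of 0.00339, 0.00367 and 0.000981.

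Of the genes that restrain TORC1, SESN2 fell and DDIT4 was not called. SESN2 (ENSG00000130766.4, chromosome 1, 28586039 to 28609002) encodes sestrin 2, a leucine-binding inhibitor of TORC1. It had 52.6, 31.9 and 43.4 CPM in S34F libraries 1, 2 and 3, against 102, 95 and 276 CPM in wild-type libraries 1, 2 and 3. The S34F libraries were all lower, and the wild-type B2 library was far above the other wild-type libraries. Of the 464 SESN2 reads in that library, 446 were of an unannotated form that starts inside the gene. The annotated ENST00000253063.3 overlapped between the genotypes and was not called (log2 fold change -1.32, edgeR adjusted p = 0.159). At the gene level SESN2 had a log2 fold change of -1.75 (SE 0.35, edgeR adjusted p = 0.0126), with -1.27 within B1 and -2.67 within B2. The gene was not called without S34F replicate 3 (-1.20, edgeR adjusted p = 0.265) or without WT replicate 3 (-1.23, edgeR adjusted p = 0.279).

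DDIT4 (ENSG00000168209.4, chromosome 10, 74033679 to 74035738) encodes REDD1, which restrains TORC1 through the TSC complex and is also induced by hypoxia and glucocorticoids. It had 3410, 2848 and 1289 CPM in S34F libraries 1, 2 and 3, against 3690, 3072 and 1090 CPM in wild-type libraries 1, 2 and 3. The B2 libraries were the lowest of both genotypes, and the genotypes overlapped. The log2 fold change was 0.01 (SE 0.33, 95% interval -0.69 to 0.71, edgeR adjusted p = 0.996), and its sign turned under 10 of 17 alternatives, down to -0.18.

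CHAC1 (ENSG00000128965.7, chromosome 15, 41245673 to 41248710), whose enzyme breaks down glutathione, was read 18, 5 and 5 times in S34F libraries 1, 2 and 3, against 123, 72 and 58 times in wild-type libraries 1, 2 and 3. These counts are 29.6, 10.6 and 4.72 CPM in S34F and 73.3, 61.1 and 34.5 CPM in wild type. Each S34F library was below its wild-type counterpart, and the highest S34F and the lowest wild-type library were only 1.17 times apart. Its log2 fold change was -2.00 (SE 0.40, edgeR adjusted p = 0.0128), with -1.92 within B1 and -2.87 within B2. It was called only without S34F replicate 1 or S34F replicate 2 when single libraries were left out, and the edgeR adjusted p was 0.128, 0.0615, 0.0501 and 0.152 without S34F replicate 3 and WT replicates 1, 2 and 3.

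ASNS (ENSG00000070669.12, chromosome 7, 97481431 to 97501720) encodes asparagine synthetase, whose promoter element for ATF4 is among the best studied. Its level was 54.2, 44.6 and 58.6 CPM in S34F libraries 1, 2 and 3, against 76.3, 85.7 and 131 CPM in wild-type libraries 1, 2 and 3. The groups did not overlap, but the nearest libraries were 1.30 times apart. The log2 fold change of -0.87 (SE 0.28, 95% interval -1.48 to -0.27) had an unadjusted p of 0.00732 and an edgeR adjusted p of 0.123. Without S34F replicate 1 it was called, at -1.02 and an edgeR adjusted p of 0.0451, beside 519 of 8784 over all tested. Of the 6 fits with a single library left out, only this 1 called ASNS. Among the 6, the edgeR adjusted p went up to 0.641 and the change was as small as -0.70. CHAC1 and ASNS are the genes whose promoter windows hold the TGATGNAA site shown above. Their log2 fold changes were -2.00 and -0.87, against -3.88 to 0.01 for genes with no match in their windows. Sequence outside the windows was not searched.

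STC2 (ENSG00000113739.6, chromosome 5, 172744068 to 172755450), which encodes the secreted glycoprotein stanniocalcin 2, had the largest log2 fold change of the 9. It was read 20, 10 and 7 times in S34F libraries 1, 2 and 3, against 509, 382 and 317 times in wild-type libraries 1, 2 and 3. That is 32.9, 21.2 and 6.61 CPM in S34F and 303, 324 and 189 CPM in wild type, and the lowest wild-type library was 5.74 times the highest S34F library. The log2 fold change was -3.88 (SE 0.35, edgeR adjusted p = 3.00e-05), with -3.57 within B1 and -4.83 within B2.

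**Figure D2:**
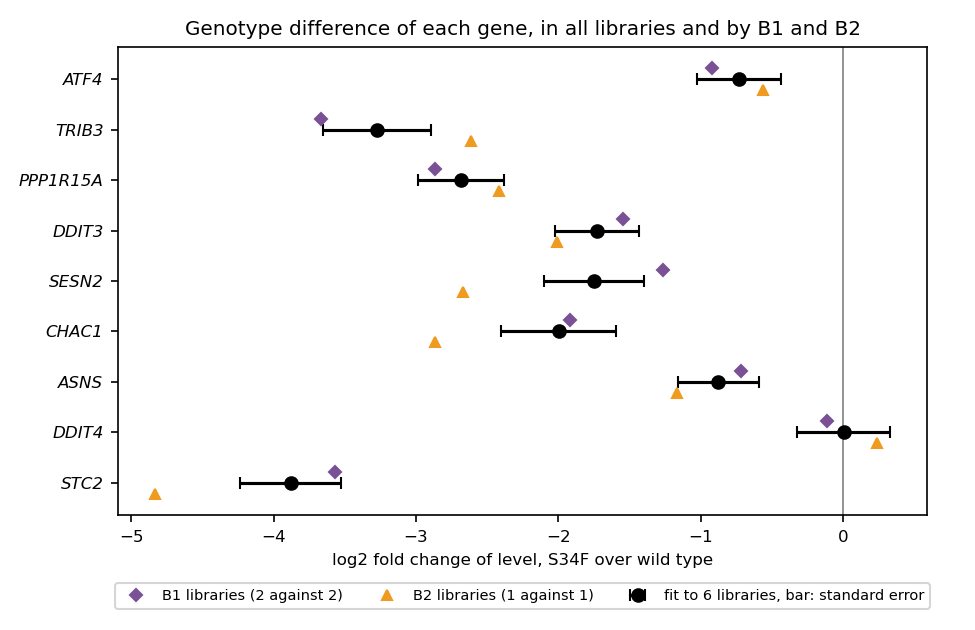
Log2 fold change of each gene, S34F over wild type, from the fit to 6 libraries (black, bar: standard error), and the difference of mean log2 levels within B1 (2 against 2 libraries) and within B2 (1 against 1). Of the 9 genes, 8 lie left of 0 in all 3 values, and DDIT4 lies at -0.11 within B1 and 0.24 within B2.

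At the level of isoforms the calls went one way. Of the 60 isoforms, 39 had enough reads to be tested and 28 were called, all of them lower in S34F. With no B1/B2 term only 1 isoform was called in place of 28, and with at least 10 reads required in every library 3 were called. Of the 13961 isoforms tested in the whole table, 4.26% were called, 2.91% lower and 1.35% higher. TRIB3 gave 18 of 18 tested, PPP1R15A 3 of 3, STC2 4 of 4, DDIT3 1 of 2, SESN2 1 of 2 and CHAC1 1 of 1. The 1 isoform of ATF4 and the 4 tested of ASNS and of DDIT4 gave 0. Isoform usage within a gene, tested for 7 of the genes with edgeR's diffSpliceDGE, was called for 0 of them by Simes or by the gene-wise F test, with 0 at an unadjusted p under 0.05, while 0.615% of the 2276 genes tested in all were called. An isoform whose reads come mainly from wild-type libraries passes the filter on low counts through them, so the isoforms tested are not all isoforms of these genes. One called TRIB3 form, for example, had 0, 0 and 1 reads in S34F libraries and 56, 55 and 27 in wild-type libraries. Isoforms of 1 gene also share its change in level. The 28 calls and their shared direction are therefore not separate evidence beside the gene-level calls.

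TRIB3 was read as 26 isoforms. Their first exons end at 4 different 5′ splice sites and form 2 groups, 361523 to 361813 and 361891 to 362144. The isoforms also have 4 groups of 3′ ends and a pair of 3′ splice sites 4 bases apart at the last exon (starting at 376842 and 376846). Of reads joining the exon before the last to either of these 3′ splice sites, the upstream site took 70.2%, 79.5% and 77.5% in S34F libraries 1, 2 and 3, against 74.6%, 76.6% and 79.5% in wild-type libraries 1, 2 and 3. The groups overlapped, and the pooled shares were 76.5% in S34F and 76.1% in wild type. The furthest upstream first exon (361523 to 361813) opened 78.3%, 79.3% and 62.0% of reads in S34F, against 76.1%, 72.0% and 62.0% in wild type. It was lowest in the B2 library of each genotype. The isoform with most reads, ENST00000217233.3-2, made up 39.6% ± 11.1 of TRIB3 reads in S34F and 32.5% ± 6.68 in wild type (SD, n = 3 each, two-sided exact permutation p = 0.4).

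Of the 18 called TRIB3 isoforms, 11 had a higher and 7 a lower share of the pooled TRIB3 reads in S34F than in wild type. One unannotated 4-exon form starting at 361891 had 1, 4 and 9 reads in S34F libraries 1, 2 and 3, against 84, 50 and 56 in wild-type libraries 1, 2 and 3, a pooled share of 5.07% in S34F and 3.03% in wild type. In the other direction, the annotated ENST00000217233.3 had 3, 2 and 8 reads in S34F libraries 1, 2 and 3, against 334, 203 and 137 in wild-type libraries 1, 2 and 3. This is 4.71% of pooled TRIB3 reads in S34F and 10.8% in wild type. By library the share was 5.0%, 2.30% and 6.20% in S34F, against 10.5%, 11.1% and 10.9% in wild type, without overlap. ENST00000217233.3 starts at 361709 and the leading ENST00000217233.3-2 at 361523, and both have 4 exons and end at 378203. The leading form had 37.3% of pooled TRIB3 reads in S34F and 34.4% in wild type. Whether the shares differ only in where reads start was not tested. A form that joins the upstream first exon directly to the exon starting at 371931 had 0, 0 and 1 reads in S34F, against 56, 55 and 27 in wild type. It made up 0.362% of pooled TRIB3 reads in S34F and 2.20% in wild type, and usage of TRIB3 isoforms as a whole did not pass the test.

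PPP1R15A was read as 3 isoforms, which differ by a 285-base intron inside exon 2 (49376846 to 49377130) and by the 3′ end. The intron was retained in 64.7%, 66.7% and 66.7% of reads in S34F libraries 1, 2 and 3, against 77.4%, 67.6% and 64.7% in wild-type libraries 1, 2 and 3. The wild-type B2 library was level with the lowest S34F library, so the groups overlapped. ENST00000200453.5, which keeps it, led with 57.1% ± 4.10 of reads in S34F and 62.6% ± 4.70 in wild type (SD, n = 3 each, two-sided exact permutation p = 0.3).

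DDIT3 reads chose between 3′ splice sites 14 bases apart (57911208 and 57911222). The downstream site, used by ENST00000547303.1, took 16.1%, 19.0% and 20% in S34F libraries 1, 2 and 3, against 14.0%, 13.5% and 15.4% in wild-type libraries 1, 2 and 3. The groups did not overlap, but the S34F share rests on 16 reads against 90 in wild type, and this single choice among many was not tested. The leading isoform ENST00000346473.3 made up 70.5% ± 9.76 of reads in S34F and 72.4% ± 2.50 in wild type (SD, n = 3 each, two-sided exact permutation p = 0.8). ENST00000346473.3 fell by 1.83 on the log2 scale (edgeR adjusted p = 0.00299), while ENST00000547303.1 had a log2 fold change of -1.47 (edgeR adjusted p = 0.0693). The call of ENST00000346473.3 was lost without S34F replicate 3 (edgeR adjusted p = 0.184) and without WT replicate 3 (0.159).

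Most pooled SESN2 reads were of an unannotated 7-exon form that starts inside the gene, at 28598841. It made up 78.1%, 40.0% and 93.5% of SESN2 reads in S34F libraries 1, 2 and 3, against 52.6%, 76.8% and 96.1% in wild-type libraries 1, 2 and 3. It dominated the B2 library of both genotypes, and 446 of the 464 SESN2 reads of the wild-type B2 library were of this form. The 10-exon ENST00000253063.3 had 5, 8 and 3 reads in S34F, against 69, 18 and 13 in wild type, with a log2 fold change of -1.32 (edgeR adjusted p = 0.159). The 7-exon form fell by 1.86 on the log2 scale (edgeR adjusted p = 0.00961), and was not called without S34F replicate 3 (0.414), WT replicate 2 (0.0738) or WT replicate 3 (0.371).

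In ASNS the upstream first exon (97501663 to 97501720) opened 63.6%, 90.5% and 85.5% of reads in S34F libraries 1, 2 and 3, against 75.8%, 65.3% and 83.3% in wild-type libraries 1, 2 and 3. Of its 9 isoforms, ENST00000394308.3 led with 37.1% in S34F and 36.9% in wild type. STC2 retained a 143-base cassette exon (172752871 to 172753013) in 85.0%, 100% and 100% of reads in S34F, against 90.0%, 88.5% and 87.1% in wild type, with 37 S34F reads in all. DDIT4 used its main 3′ end in 96.3% to 97.2% of reads in S34F libraries and 95.9% to 97.0% in wild-type libraries. The share of the leading isoform gave two-sided exact permutation p-values of 0.8 in SESN2, 1.0 in ASNS and 0.3 in DDIT4, and with 3 against 3 libraries no p can go below 0.1.

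**Figure D3:**
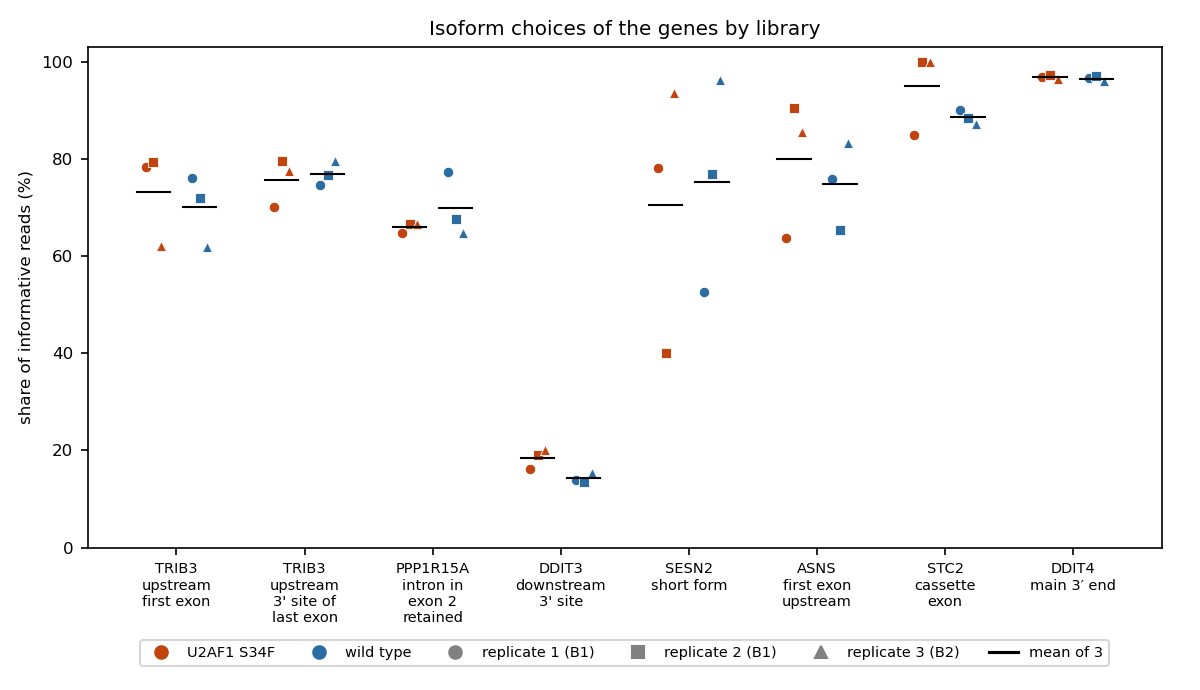
Share of informative reads that carry a named form, in percent, for 8 choices in 7 genes, with S34F libraries left of wild-type libraries, 1 point per library and a bar at the mean of 3. Of these 8 choices, only the DDIT3 points do not overlap, at 16.1% to 20% in S34F and 13.5% to 15.4% in wild type. Other isoform choices of the genes are not shown.

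The wider pathway was followed with 8 lists, of which 114 genes had reads and 81 could be tested. Of these 81, 5 were called lower in S34F and 0 higher, while 2.13% of all 7033 genes and loci tested were called lower and 1.11% higher. Of the 81, 54 had a negative log2 fold change, against 3405 of 7033 of all tested. Their median was -0.28, against 0.02 for all tested. The lists too were chosen with earlier results of these data known. The lists hold 6 to 16 tested genes each and gave 0 to 2 calls each. None of the 5 calls survived leaving out S34F replicate 3 or any single wild-type library, where edgeR called 0 list genes and 13 to 27 had an unadjusted p under 0.05.

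The cytosolic tRNA synthetases, many of which are ATF4 targets, had a negative log2 fold change in 12 of 12 genes tested, with a median of -0.72, and 2 of the 12 were called lower. MARS1, the methionyl-tRNA synthetase gene, had 42.7, 59.5 and 109 CPM in S34F libraries 1, 2 and 3, against 122, 106 and 366 CPM in wild-type libraries 1, 2 and 3 (log2 fold change -1.40, edgeR adjusted p = 0.0144). CARS1, for cysteine, had 59.7 ± 16.4 CPM in S34F and 135 ± 16.6 CPM in wild type (SD, n = 3 each, log2 fold change -1.19, edgeR adjusted p = 0.0249). GARS1, for glycine, did not pass, at -0.89. MARS1 lies on the opposite strand of DDIT3 and overlaps its 3′ part (57881808 to 57911352). The sources used here do not say whether strand was used in counting, so reads of the overlap may not be fully told apart.

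Of the amino acid synthesis enzymes, 1 of 10 was called. SHMT2, the mitochondrial serine hydroxymethyltransferase gene, had 163 ± 39.8 CPM in S34F and 333 ± 53.2 CPM in wild type (SD, n = 3 each, log2 fold change -1.05, edgeR adjusted p = 0.0456, 0.0667 with the replicate number as a block and 0.0527 with RLE size factors). PSAT1 of serine synthesis (-1.13, adjusted p = 0.089) and MTHFD2 of the folate cycle (-1.04, adjusted p = 0.0755) did not pass edgeR's test. The list had 9 of 10 negative values, all but PHGDH (0.19), and a median of -0.80. Of the amino acid transporters, 0 of 6 were called by edgeR and 2 had an unadjusted p under 0.05, with a median of -0.58. The value was negative in 4 of 6, and SLC7A5 (0.08) and SLC1A5 (0.02) were positive. SLC38A2 (-0.91), SLC38A1 (-0.90) and SLC7A1 (-0.69) had the smallest p-values among the transporters.

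Among the bZIP factors, 1 of 9 was called. ATF6, the membrane-bound sensor of the endoplasmic reticulum, had 4.93, 4.25 and 11.3 CPM in S34F libraries 1, 2 and 3, against 16.7, 17.0 and 37.5 CPM in wild-type libraries 1, 2 and 3 (log2 fold change -1.77, edgeR adjusted p = 0.031). It was not called by DESeq2 (adjusted p = 0.103) or limma-voom (adjusted p = 0.0678). FOSL1 (-1.55, edgeR adjusted p = 0.0593, and 0.0175 in DESeq2) and MAFF (-1.49, edgeR adjusted p = 0.0762) did not pass edgeR's test. Of 9 other ATF4 targets tested, only GDF15, a secreted stress cytokine, was called, with 14.8, 0 and 1.89 CPM in S34F libraries 1, 2 and 3, against 40.5, 36.5 and 14.3 CPM in wild-type libraries 1, 2 and 3 (log2 fold change -2.38, edgeR adjusted p = 0.0327). Its groups overlapped, limma-voom did not call it (adjusted p = 0.0678), and it was read 11 times in S34F and 135 times in wild type. MAP1LC3B, an autophagosome gene, had a log2 fold change of -1.17 (edgeR adjusted p = 0.0511, 0.0489 with the replicate number as a block and 0.0498 in limma-voom), and NRBF2, which also acts in autophagy, one of -1.18 (edgeR adjusted p = 0.0865). These other targets had 8 of 9 negative values, all but SQSTM1 (0.28), and a median of -0.56.

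The arms beside and above ATF4, like the transporters, gave 0 calls in edgeR, DESeq2 and limma-voom. Of 12 tested kinases and eIF2 factors, 0 were called and 2 had an unadjusted p under 0.05, with a median of 0.08. EIF2S2 (-1.0) and EIF2B2 (-1.06), subunits of eIF2 and its exchange factor, had the smallest p-values, and EIF2AK4, which encodes the kinase GCN2, was at 0.49. Of 16 tested ATF6 and XBP1 targets, 0 were called and 2 had an unadjusted p under 0.05, with a median of 0.21. The chaperone cofactor DNAJB9 was at -1.62 (edgeR adjusted p = 0.128), SELENOS at -0.84 and the disulfide isomerase PDIA3 at 0.63. Of 8 tested TORC1 regulators, 0 were called and 1 had an unadjusted p under 0.05, with a median of 0.18. RRAGA was at 0.79 (edgeR adjusted p = 0.193), SEH1L at 0.51 and NPRL2 at 0.22. That the lists differ from each other was not tested.

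**Figure D4:**
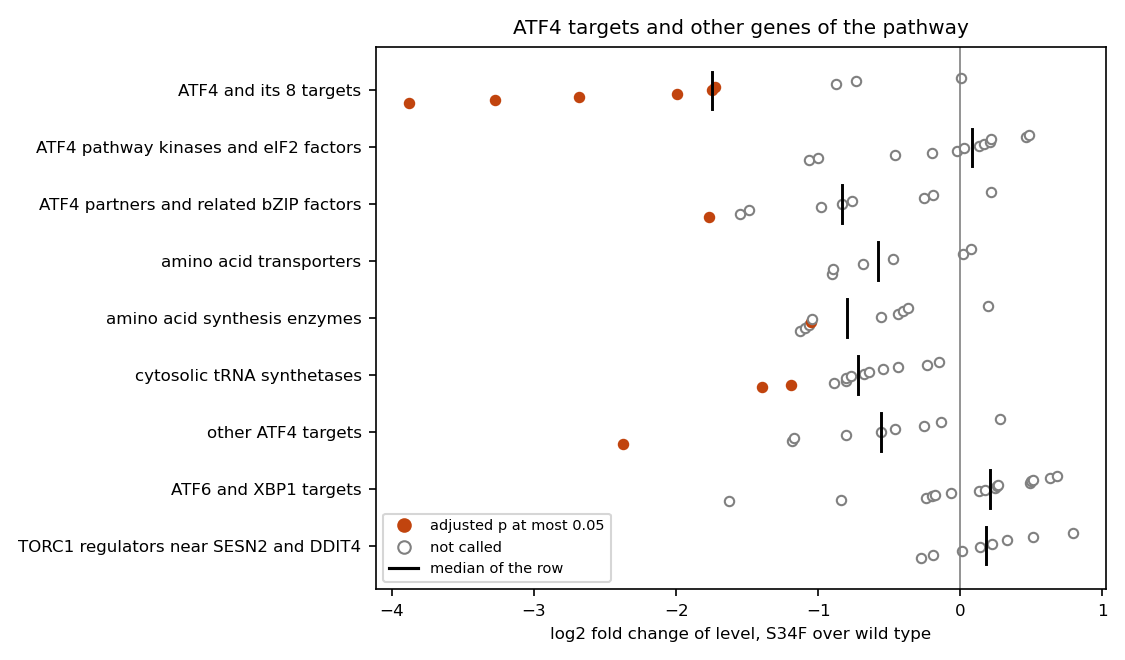
Log2 fold change, S34F over wild type, of each tested gene, by list (rows), with filled points at an adjusted p of at most 0.05, open points for genes not called and a bar at the row's median. The 9 genes of the top row have a median of -1.75, and the rows below run from -0.83 to 0.21.

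The level over the 6 libraries most like the mean of the 9 genes was that of IFFO1, with a Pearson r of 0.988 among 2699 genes at a mean of at least 50 CPM. AREG, a ligand of the EGF receptor (0.984), UPP1, uridine phosphorylase (0.984), the acute-phase gene SAA1 (0.983), the stress-induced growth arrest gene GADD45A (0.979) and the protease inhibitor gene SERPINB1 (0.979) followed. The genes share these 6 libraries, with their genotype, depth and B1/B2, so the values are a description only. GADD45A had 50.9, 61.6 and 34 CPM in S34F libraries 1, 2 and 3, against 202, 187 and 140 CPM in wild-type libraries 1, 2 and 3. UPP1 had 143 ± 43.0 CPM in S34F and 1162 ± 381 CPM in wild type (SD, n = 3 each).

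Loci without a gene ID lie beside or within several of the genes. A single-exon locus lies on the strand of STC2, 1123 bases beyond its 3′ end (chromosome 5, 172741717 to 172742945). It had 1, 1 and 0 reads in S34F libraries 1, 2 and 3, against 27, 34 and 54 in wild-type libraries 1, 2 and 3. It was the only one of 5 tested loci to be called, with a log2 fold change of -4.63 (edgeR adjusted p = 0.00213), and was not called without WT replicate 3 (edgeR adjusted p = 0.0732). Whether reads of this locus belong to STC2 transcripts was not tested. At DDIT4 an opposite-strand single-exon locus (74034451 to 74035792) had 720 reads in S34F and 2039 in wild type (log2 fold change -0.34, edgeR adjusted p = 0.612). A second one (74035358 to 74035792) had 46 reads in S34F and 191 in wild type (-0.92, adjusted p = 0.176 in edgeR). A spliced one on the strand of DDIT4 had 46 reads in S34F and 99 in wild type (-0.04). Beside ATF4, a single-exon locus 1564 bases away had 46 reads in S34F and 141 in wild type (-0.46).

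Too few reads for a test lay at a locus inside a TRIB3 intron (370703 to 371668, 4 reads in S34F and 37 in wild type), at a second form within CHAC1 (41245941 to 41248710, 5 in S34F and 37 in wild type) and at 1 inside SESN2 (28602604 to 28602996, 1 in S34F and 27 in wild type). With all overlapping loci added to their gene, an alternative chosen after seeing the data, 6 of 9 genes were called as before. RBCK1, an annotated neighbour 9732 bases from TRIB3 that encodes a subunit of a ubiquitin ligase, also fell, with 530 reads in S34F and 4663 in wild type (log2 fold change -1.99, edgeR adjusted p = 0.00234, and 0.063 without WT replicate 3). RBCK1 was picked out after its values were seen. MARS1 beside DDIT3 is given above, and the neighbours RPS19BP1 of ATF4 (0.0051) and DCTN2 of DDIT3 (-0.0021) were not called.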

How the data were processed

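Per the labels' protocols, poly(A) RNA was reverse transcribed by Smart-Seq2 and read with 1D nanopore chemistry. The authors deposited raw counts of reads per isoform and library, with the isoform models, whose file name ties them to FLAIR. Per the submitters' processing notes, positions are in hg19. The aligner, its version, filters, strand use and how reads were assigned to isoforms were not given in the sources used here.

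Counts were summed per gene or locus (24220 in all), and 10832 of 11034 Ensembl IDs found a symbol. Isoforms with different 3′ ends or starts count separately. Tests used edgeR 4.0.16 under R 4.3.3 (quasi-likelihood test, TMM, filterByExpr with 10 reads and 15 in total, a B1/B2 term, 3 residual degrees of freedom), with Benjamini-Hochberg adjustment over all features tested and a threshold of 0.05. Of 7033 genes and loci, 228 were called (3.24%). Of 13961 isoforms, 595 were called (4.26%). Isoform usage used diffSpliceDGE with Simes p-values. Standard errors are the fold change over the root of F. Leading isoform shares were tested by an exact two-sided permutation over libraries in genes with at least 10 reads in every library, which leaves out STC2, and ATF4 and CHAC1 have 1 isoform. The adjusted p over the 6 tested was 0.8 to 1.0. 3′ ends were merged within 100 bases. DESeq2 1.42.0 and limma 3.58.1 (voom) were run beside edgeR. Sums, shares and plots used Python 3.11.15 with pandas 2.3.3, numpy 2.4.6, scipy 1.17.1 and matplotlib 3.10.9, and the test scripts were tested on simulated data.

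The replicate numbers are those of the labels. The deviations of libraries of the same number from their genotype means had correlations of 0.469, 0.138 and 0.825 for replicates 1, 2 and 3. Within B1 both S34F libraries went better with the other number (0.506 for S34F replicate 1 with WT replicate 2, and 0.288 for S34F replicate 2 with WT replicate 1). The main fit used only the B1/B2 term, and the numbers served as pairs only in the alternative fit with the replicate block.

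The genes and lists were chosen with earlier results of these data known. Named are all 9 genes, isoforms with 10% of a gene's reads or called (those of TRIB3 by counts and examples), in each list every called gene up to 6 or else the 3 with the smallest p, the 6 genes most alike in log2 CPM (0.5 CPM added), and neighbouring loci within 10000 bases. Genes with a positive value are also named in the lists of transporters, synthesis enzymes and other ATF4 targets. Counts have no molecular identifiers, so PCR copies are not independent molecules.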

Additional observations from a re-analysis of the deposited data

How the results depend on the processing

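Leaving out 1 library gave 3 to 8 of the 9 genes called in place of 6 and 24 to 31 isoforms in place of 28. It gave 0 to 23 list genes in place of 5 and 0 to 1 neighbouring loci in place of 1, which was lost without WT replicate 3. Over all tested, these fits called from 67 of 6976 (without WT replicate 3) to 655 of 8595 (without S34F replicate 2). The 8 genes came without S34F replicate 1, beside 519 of 8784 over all tested. The 23 list genes came without S34F replicate 2. With no B1/B2 term edgeR called 0 genes, 1 isoform, 0 list genes (14 with an unadjusted p under 0.05) and 0 neighbouring loci (2), and 2 of 7033 over all tested. With the libraries of isolate 2 summed it called 0 genes, 0 list genes (10) and 0 loci (1), and 0 of 8614 over all tested. In B1 libraries only it called 3 genes and 0 list genes (12), and 79 of 6330 over all tested. Without a filter on low counts, 20 list genes and 2 loci were called, and 491 of 24220 over all tested. With at least 10 reads in every library, 4 of 7 genes tested, 3 isoforms, 3 list genes and 0 loci (1) were called. Over all tested 72 of 3772 were called, as this filter removes what is low in S34F. At equal depth, 5 genes were called, with CHAC1 lost, and 18 isoforms, 2 list genes and 0 loci (0), and 94 of 4402 over all tested.

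With the replicate block, 6 genes, 28 isoforms and 5 list genes were called, and 187 features in place of 228 over the whole table. Among named genes and isoforms it changed no call other than those of SHMT2, lost, and MAP1LC3B, gained. RLE size factors, DESeq2 and limma-voom each gave 6 genes, with 28, 26 and 23 isoforms and 4, 5 and 4 list genes. Over all tested they called 226, 209 and 193 of 7033. RLE lost SHMT2, DESeq2 lost ATF6 and gained FOSL1, and limma-voom lost ATF6 and GDF15 and gained MAP1LC3B. Usage gave 0 calls in every alternative, with at most 1 gene at an unadjusted p under 0.05. The uncalled value of DDIT4 changed sign, to as low as -0.14 with 1 library left out (the highest such value was 0.098), to -0.057 with no B1/B2 term or with overlapping loci added, -0.12 in B1, -0.18 without the filter, -0.069 with 10 reads in every library and -0.13 with isolate 2 summed. Its main isoform turned to 0.04 without S34F replicate 2 and 0.072 without WT replicate 1. The cause of these changes was not tested. S34F libraries are shallower, so members with few S34F reads, CHAC1 and STC2 above all, have the least certain levels.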
